A study of Mus musculus with 6 samples.

Results

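Sebaceous gland lipid genes are described here as 8 genes chosen by symbol, namely Scd3, Elovl3, Far1, Far2, Mc5r, Soat1, Dgat1 and Dgat2, out of 23951 genes in the expression table. All 8 were in the table, and all 8 were among the 17021 genes that reached a mean of at least 0.1 FPKM (fragments per kilobase of transcript per 1000000 mapped fragments, a level that takes transcript length into account). The values come from whole skin of 3 mice with the genotype "JunB dep", called JunBΔep here, and 3 control mice with the genotype JunB +/+, all littermates of the C57Bl/6 strain aged 6 to 7 months by the labels (the study's text gives 6 months). In JunBΔep mice JunB, a subunit of the AP-1 transcription factor, is deleted in cells that express keratin 5, which include basal keratinocytes and the cells that replenish hair follicles and sebaceous glands. The study describes the mutant skin as lesional and its methods state that mice of both sexes were used. The labels give no sex, and whether the control mice carried a floxed allele is not given in these sources. Where the values of the 3 mice of a genotype follow each other, they stand in the order of replicates 0, 1 and 2.

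The sebaceous gland opens into the hair follicle. Its cells, the sebocytes, fill with lipid droplets and then burst to release sebum, which in mice is rich in wax esters, triacylglycerol and cholesterol esters. Of the 8 genes, 7 encode enzymes of this synthesis and 1 a receptor. Scd3 places a double bond in saturated fatty acids, and Elovl3 lengthens saturated and monounsaturated ones. Far1 and Far2 reduce fatty acyl-CoA to fatty alcohols, the alcohol part of wax esters, and Far1 also feeds ether lipid synthesis. Dgat1 and Dgat2 make triacylglycerol, Soat1 makes cholesterol esters, and Mc5r is the melanocortin receptor of sebocytes and other exocrine gland cells. Several of them are also used elsewhere: Dgat1, Dgat2 and Soat1 are active in adipocytes or macrophages, and Far1 is expressed in most tissues. In whole skin, fewer cells of a type and less RNA per cell cannot be told apart.

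On the mm9 build, Scd3 and Elovl3 both lie on chromosome 19 on the plus strand, at 44277759 to 44318506 and at 46206387 to 46210184, and Elovl3 overlaps Pitx3 on the opposite strand. Far1 spans 120657348 to 120715025 and Dgat2 spans 106302173 to 106331223 of chromosome 7, on the plus and the minus strand, and Far1 overlaps the noncoding 1700006P19Rik on the opposite strand. Far2 occupies 147995781 to 148131280 of chromosome 6 and overlaps Ergic2 and a pair of noncoding transcripts on the other strand. Soat1 is at 158358239 to 158404459 of chromosome 1 and Dgat1 at 76332445 to 76342381 of chromosome 15, both on the minus strand. The libraries kept strand information, but it is not given here whether the authors' quantification used it. Scd3 has close relatives beside it, and 4.71% of the 50-base windows of its transcripts also occur in Scd1 transcripts, 3.84% in those of Scd2 and 1.92% in those of Scd4, so its level may hold some reads of the far more abundant Scd1 or Scd2. No 50-base window was shared between Far1 and Far2, Dgat2 and Awat1 or Awat2, Soat1 and Soat2, or Elovl3 and Elovl6.

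The bases upstream of 3 of the genes are shown because their expression patterns contrast: Scd3 is the single gene of the 8 without overlap between the genotypes, while Far1 and Far2 catalyse the same reaction but varied 2.05-fold and 5.90-fold between mice. The sequences are from RefSeq on the GRCm38.p6 build, all from the plus strand, and end at the base before the start site. Scd3 is at chr19:44203038-44203287, Far1 at chr7:113513584-113513833 and Far2 at chr6:148047166-148047415. Capitals mark the letters CCAAT, or ATTGG where the motif lies on the other strand.
Scd3: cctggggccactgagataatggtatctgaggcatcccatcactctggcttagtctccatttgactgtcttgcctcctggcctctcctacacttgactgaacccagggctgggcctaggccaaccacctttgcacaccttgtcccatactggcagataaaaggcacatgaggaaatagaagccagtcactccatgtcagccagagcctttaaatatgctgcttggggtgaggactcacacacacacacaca
Far1: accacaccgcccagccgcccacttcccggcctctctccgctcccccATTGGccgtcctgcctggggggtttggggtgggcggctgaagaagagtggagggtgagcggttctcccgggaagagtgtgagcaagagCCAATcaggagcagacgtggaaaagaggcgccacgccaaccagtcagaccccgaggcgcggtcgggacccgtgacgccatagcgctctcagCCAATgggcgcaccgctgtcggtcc
Far2: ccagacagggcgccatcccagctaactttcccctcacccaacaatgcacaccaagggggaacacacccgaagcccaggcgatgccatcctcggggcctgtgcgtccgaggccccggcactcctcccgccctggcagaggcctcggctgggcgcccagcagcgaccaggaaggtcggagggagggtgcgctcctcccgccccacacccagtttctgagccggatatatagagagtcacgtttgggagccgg

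Windows of 250 bases before to 50 bases after the start were held for 4 of the genes, Soat1, Far2, Far1 and Scd3. CCAAT, searched on both strands as were all motifs, occurred in 37.4% of 32851 windows of this length. Far1 had it at -116 and -25 on the plus strand and at -204 on the minus strand, counted from the start site, and Soat1 had it at -30, whereas Far2 and Scd3 had none. The AP-1 motif TGANTCA, present in 7.81% of all windows, was in none of the 4, nor were the SREBP element TCACNCCAC (1.24% of windows), the DR1 element of PPAR and RXR (0.0396%) or TATAAA (13.6%). The motifs do not overlap one another in these windows. Bases G and C made up 67.7% of the Far1 window, 66% of that of Far2, 62% of that of Soat1 and 54% of that of Scd3, against a median of 52.7% over all windows.

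The 6 libraries differed in more than genotype. Summed FPKM ranged from 481078 to 630363 and depth in reads is unknown, which leaves counting errors unestimated. Junb itself measured 59.3, 72.4 and 56.9 FPKM among controls, against 130, 42.8 and 28 FPKM for JunBΔep, so the library labelled JunBΔep replicate 0 was above the controls. Cells without the deletion also contribute to whole skin, and Junb does not check the label of that library, which is meant wherever JunBΔep replicate 0 is named. Transcripts of the X and Y chromosomes put control replicates 0 and 2 and JunBΔep replicate 0 as male and the other 3 as female. JunBΔep replicate 0 held mucosal epithelium markers at a sum of 3798 FPKM, against at most 1.41 in the other mice. Its neutrophil markers summed to 24548 FPKM, against 1452 FPKM in control replicate 0 and 14.1 to 135 FPKM in the rest. Krt14, which defines basal keratinocytes, was listed at 0 in JunBΔep replicate 0, although its partner Krt5 was at 3725 FPKM there. Krt16, Krt6a, Krt75, Mrgprb3 and the neutrophil marker S100a9 were also listed at 0 there, beside 3 FPKM or more in every other mouse. Krt5 was at 1588 FPKM or more in every mouse. Control replicate 0 alone had liver transcripts at a high sum, 2856 FPKM. The part of these differences in the results that follow was not tested except where a value is given.

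None of the 8 genes passed the test between the genotypes (limma on log2 of FPKM + 0.5, two-sided, Benjamini-Hochberg adjusted p below 0.05 over all 17021 genes), which 1.38% of all genes did, every one of them lower in JunBΔep skin. The study, whose own test was DESeq2 on read counts, reports upregulated pathways in this skin. The lack of genes called higher holds for the test used here, in which 243 were higher at an unadjusted p below 0.05. Without adjustment, 2 of the 8 had a p below 0.05, Scd3 lower and Dgat1 higher in JunBΔep skin, beside 7.56% of all genes. Of the 8 log2 fold changes, 5 were above 0 and 3 below, with a median of 0.15 against 0.03 over all genes. The median was -0.12 without control replicate 1 and -0.027 without JunBΔep replicate 0, so its sign rested on single mice. In simulated data with the spread of all 17021 genes, of which 200 were altered, the same procedure recovered 0% of genes altered by a log2 change of 1 and 53.6% of those altered by 2 with 3 mice a group, so a log2 change of 1 was not detectable for a gene of typical spread. An exact permutation test of 3 mice against 3 cannot give a p below 0.1, and Scd3 alone reached that value.

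**Figure D1:**
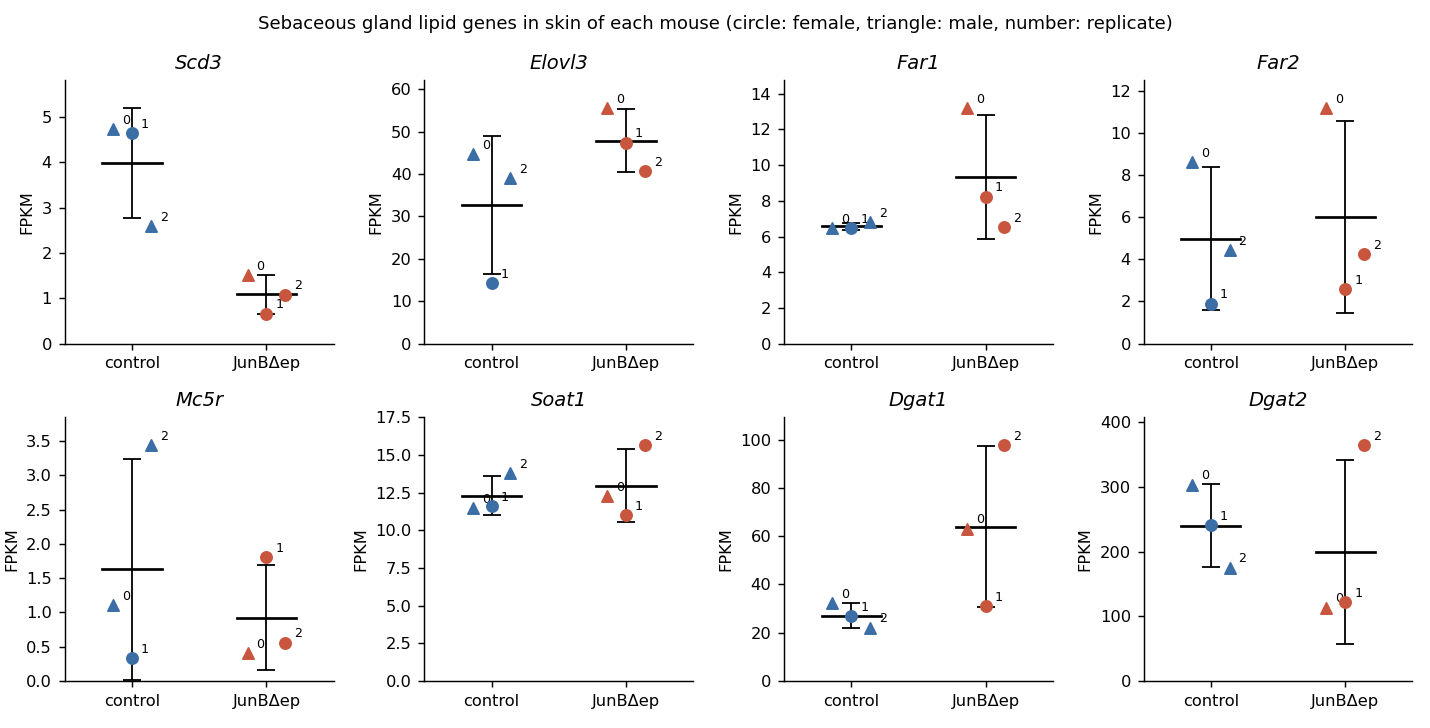
FPKM of each of the 8 genes (vertical axes from 0, a separate scale for each gene) in the 3 control mice (blue) and the 3 JunBΔep mice (red), with bars at the group mean ± SD, circles for females, triangles for males and the replicate number beside each point. Only in the Scd3 panel do the groups stay apart, with controls at 2.59 FPKM or more and JunBΔep mice at 1.51 FPKM or less.

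In mean level over the 6 mice, Dgat2 stood highest with 219.7 FPKM, followed by Dgat1 with 45.5, Elovl3 with 40.3, Soat1 with 12.6, Far1 with 7.95, Far2 with 5.49, Scd3 with 2.54 and Mc5r with 1.27 FPKM. Dgat2 was above Dgat1 in 6 of 6 mice and the ranges of the pair did not meet. Every other pair of neighbours in this order had overlapping ranges, although Elovl3 was above Soat1 in 6 of 6 mice. The 8 genes also differed in how constant they were. Soat1 varied 1.42-fold and Far1 2.05-fold between the lowest and the highest mouse, Dgat2 3.21-fold, Elovl3 3.89-fold, Dgat1 4.43-fold, Far2 5.90-fold, Scd3 7.14-fold and Mc5r 10.4-fold. No mouse was high or low for all of them: JunBΔep replicate 0 was highest for Elovl3, Far1 and Far2, JunBΔep replicate 2 for Soat1, Dgat1 and Dgat2, and control replicate 1 lowest for Elovl3, Far1, Far2 and Mc5r.

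Of the 8 genes, Scd3 had the smallest p. It measured 4.73, 4.64 and 2.59 FPKM among controls, against 1.51, 0.662 and 1.08 FPKM for JunBΔep. Every JunBΔep mouse was therefore below every control mouse, as for 9.16% of all genes tested in this direction. The means were 3.99 ± 1.21 (SD, n = 3) and 1.08 ± 0.423 FPKM (SD, n = 3), a log2 fold change of -1.50 with a standard error of 0.33 and a 95% interval from -2.30 to -0.69 (adjusted p = 0.155, limma). The difference was -1.92 on the log2 scale within females and -1.002 within males, and -1.37 and -1.19 among mice with sample numbers in the 230s and in the 270s. When each mouse was left out in turn, the log2 fold change lay between -1.75 and -1.29, with -1.69 without JunBΔep replicate 0. Skeletal muscle markers, which can enter a skin sample with the panniculus carnosus, were lower as well: all 10 were lower in every JunBΔep mouse, 8 of 10 passed the test, and their sum was 17127 to 23314 FPKM among controls, against 1621 to 3900 FPKM for JunBΔep. The number passing was 2 without JunBΔep replicate 0 or with sex as a covariate, 3 without the filter, 9 without JunBΔep replicate 2 and 0 without any one control, without JunBΔep replicate 1 or with a block, while their median log2 fold change stayed between -3.64 and -2.95. Of 7 brown adipocyte markers, which include genes that muscle also expresses, 1 passed the test, Cox7a1, at a mean of 234 FPKM among controls and 27 FPKM for JunBΔep. The number passing was also 1 without JunBΔep replicate 0, without JunBΔep replicate 2 or with sex as a covariate. It was 0 without any one control, without JunBΔep replicate 1 or with a block, where no gene passed. Cox8b, at means of 357 and 56.4 FPKM, and Ppargc1a, at 1.201 and 0.370 FPKM, were also lower in every JunBΔep mouse. Ucp1, which defines brown fat, stayed at 0.0643 to 1.73 FPKM. It was higher in every JunBΔep mouse, as were 5.62% of all genes, with a log2 fold change of 0.73 (adjusted p = 0.722, limma). Cidea, Dio2 and Prdm16 overlapped between the genotypes. The part of muscle and brown fat in the Scd3 difference was not tested.

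The groups overlapped for the other desaturases. Scd2, expressed in many skin cells, ranged over 26.3 to 60.8 FPKM among controls and over 30.9 to 76.4 FPKM for JunBΔep (log2 fold change 0.36, adjusted p = 0.789, limma). Scd4 stayed at 0.22 to 0.464 FPKM in all 6 mice. Scd1, the main stearoyl-CoA desaturase of sebaceous glands and fat, measured 536, 273 and 291 FPKM among controls. JunBΔep replicate 0 had 153 FPKM and replicate 1 had 752 FPKM, but Scd1 was listed at 0 in JunBΔep replicate 2. The log2 fold change of Scd1 was -3.18 with the 0 (adjusted p = 0.722, limma) and -0.04 with it taken as missing (adjusted p = 0.987), the latter from a pair of JunBΔep mice on either side of the controls. Scd3 was thus a small part of desaturase transcripts, and the ratio of Scd2 to Scd3, chosen after the values were seen, was 5.66 to 23.5 in controls and 28.6 to 96.2 in JunBΔep mice.

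Elovl3, the elongase of sebaceous glands, hair follicles and brown fat, measured 44.7, 14.3 and 39.1 FPKM among controls. The JunBΔep mice had 55.6, 47.4 and 40.7 FPKM. The groups overlapped, since control replicate 0 lay above JunBΔep replicate 2, and 1 control mouse stood well below the other 5. The means of 32.7 ± 16.2 and 47.9 ± 7.45 FPKM (SD, n = 3 each) gave a log2 fold change of 0.69 (standard error 0.44, 95% interval -0.39 to 1.77, adjusted p = 0.722, limma). Control replicate 1, the low mouse, is the only female control. The JunBΔep mouse or mice of each sex were higher than the controls of that sex, by 1.59 on the log2 scale in females and 0.41 in males, and without control replicate 1 the log2 fold change was 0.18. With sex as a covariate it was 0.997 (adjusted p = 0.277), and the difference between the sexes did not pass the test (interaction, adjusted p = 0.287). Of the other elongases, Elovl1 and Elovl4 were the most abundant, at 128 to 225 and 88.2 to 240 FPKM over the 6 mice. Elovl6, which lengthens palmitate, reached 173 FPKM in JunBΔep replicate 2 and was at 32.8 to 54.6 FPKM elsewhere. None of the 9 other desaturases and elongases passed the test (limma), and none had an unadjusted p below 0.05.

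**Figure D2:**
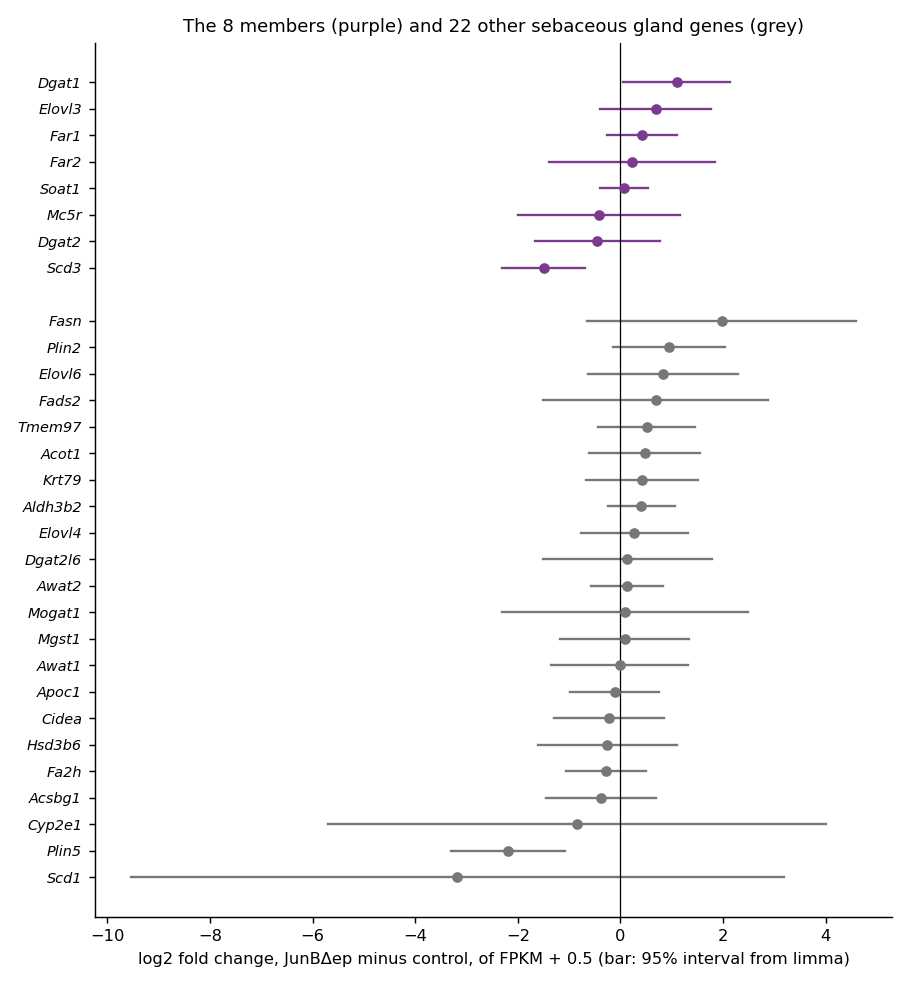
Log2 fold change (JunBΔep minus control, of FPKM + 0.5, horizontal axis) with its 95% interval from limma for the 8 genes (purple) and 22 other sebaceous gland genes (grey), each group ordered by value. The interval of Scd3, from -2.30 to -0.69, and that of Dgat1 exclude 0 before adjustment, as does that of Plin5 among the others, and the wide interval of Scd1 includes a library listed at 0.

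The pair of fatty acyl-CoA reductases differed in how far they varied between mice. Far1 measured 6.48, 6.45 and 6.81 FPKM among controls, against 13.2, 8.23 and 6.51 FPKM for JunBΔep. The controls lay close together, at 6.58 ± 0.199 FPKM (SD, n = 3), and JunBΔep replicate 0 alone was about 2.05 times the lowest control. The log2 fold change was 0.41 (standard error 0.28, 95% interval -0.27 to 1.09, adjusted p = 0.722, limma), and it was 0.14 without JunBΔep replicate 0, the library with the mucosal and neutrophil transcripts. Far2 varied within both genotypes and measured 8.61, 1.89 and 4.42 FPKM among controls, against 11.2, 2.59 and 4.24 FPKM for JunBΔep. The first control and the first JunBΔep mouse were high for Far2 and the second of each was low, so the log2 fold change of 0.22 had a standard error of 0.67 and an interval from -1.40 to 1.85 (adjusted p = 0.916, limma). Its sign depended on single mice, with -0.27 without control replicate 1 and -0.31 without JunBΔep replicate 0. Within females and within males Far2 was higher in JunBΔep mice, by 0.68 and 0.80 on the log2 scale, whereas it was higher by 1.32 among sample numbers in the 230s and lower, at -0.36, in the 270s. Far1 was above Far2 in 5 of 6 mice, all but control replicate 0.

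Among other genes of wax and ether lipid synthesis, Agps, the peroxisomal enzyme that exchanges the acyl group for a fatty alcohol in ether lipids, measured 3.20, 3.13 and 4.36 FPKM among controls, against 8.30, 6.03 and 6.11 FPKM for JunBΔep. The groups did not overlap, a pattern found in this direction in 5.62% of all genes, and the log2 fold change was 0.85 (adjusted p = 0.306, limma). Gnpat, which acts just before it, ranged over 38.4 to 43.6 FPKM among controls and over 24.7 to 49.2 FPKM for JunBΔep. The wax synthases Awat1 and Awat2 had log2 fold changes of -0.01 and 0.13. None of the 5 genes of this list outside the 8 passed the test (limma), and 1, Agps, had an unadjusted p below 0.05.

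Mc5r, at 68497250 to 68499377 on the plus strand of chromosome 18 (mm9), was the least abundant and, in fold between mice, the most variable. It measured 1.11, 0.332 and 3.44 FPKM among controls, against 0.404, 1.80 and 0.555 FPKM for JunBΔep. The groups overlapped across most of their ranges, with control replicate 2 highest and JunBΔep replicate 1 next. The log2 fold change was -0.42 (standard error 0.65, 95% interval -2.00 to 1.16, adjusted p = 0.824, limma), and it was 0.17 without control replicate 2. The same 2 mice had the highest transcripts of growing hair follicles: the sum of 10 anagen markers was 3837 FPKM in control replicate 2 and 6234 FPKM in JunBΔep replicate 1, against 7.69 to 335.4 FPKM in the other 4. In the remaining 4 mice Mc5r was at 0.332 to 1.11 FPKM. The part of the hair cycle in the Mc5r level was not tested. Of the 9 other measurable genes of the melanocortin axis, 0 passed the test and 0 had an unadjusted p below 0.05 (limma). Mrap, an accessory protein of melanocortin receptors that is abundant in fat, measured 25.9, 19.96 and 13.96 FPKM among controls, against 0.0451, 14.4 and 71.3 FPKM for JunBΔep, lowest and highest in the mice with the lowest and the highest sum of white adipocyte markers. Pomc, the gene of the melanocortin precursor, did not exceed 0.244 FPKM in any mouse.

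The acyltransferases that finish the storage lipids held both the most constant and the most abundant gene. Soat1 measured 11.5, 11.6 and 13.8 FPKM among controls, against 12.3, 11 and 15.6 FPKM for JunBΔep. All 6 mice were close together, and the log2 fold change of 0.07 had a 95% interval from -0.41 to 0.54 (adjusted p = 0.916, limma). It was -0.07 without JunBΔep replicate 2. Macrophages also use Soat1, and the sum of 6 macrophage markers ranged from 91.2 to 685.8 FPKM. Their part in the Soat1 level was not tested.

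Dgat1 measured 32.3, 26.8 and 22.04 FPKM among controls, against 63.1, 31.0 and 97.6 FPKM for JunBΔep. A pair of JunBΔep mice was above every control, and JunBΔep replicate 1 lay among the controls. The means were 27.0 ± 5.14 and 63.9 ± 33.3 FPKM (SD, n = 3 each), with a log2 fold change of 1.09 (standard error 0.43, 95% interval 0.06 to 2.13, adjusted p = 0.621, limma). The difference had the same direction within females (1.03), within males (1.23) and among sample numbers in the 230s (1.09) and 270s (1.302), and leaving out single mice gave 0.72 to 1.54, with 1.03 without JunBΔep replicate 0.

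Dgat2 measured 303, 241 and 175 FPKM among controls, against 113, 122 and 364 FPKM for JunBΔep. A pair of JunBΔep mice was below every control and the third was above all of them. The log2 fold change was -0.45 (standard error 0.50, 95% interval -1.66 to 0.77, adjusted p = 0.765, limma), and it was -0.99 without JunBΔep replicate 2 (adjusted p = 0.189) and -0.15 without JunBΔep replicate 0. White adipocyte markers differed between the same mice: the sum of 12 markers was 4600, 7765 and 3104 FPKM among controls, against 114.2, 3972 and 18702 FPKM for JunBΔep, with Adipoq at 1.61 FPKM in JunBΔep replicate 0. The mouse with the highest adipocyte sum had the highest Dgat2 and Dgat1, and the mouse with the lowest had the lowest Dgat2 but the second highest Dgat1. The part of fat in these levels was not tested.

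**Figure D3:**
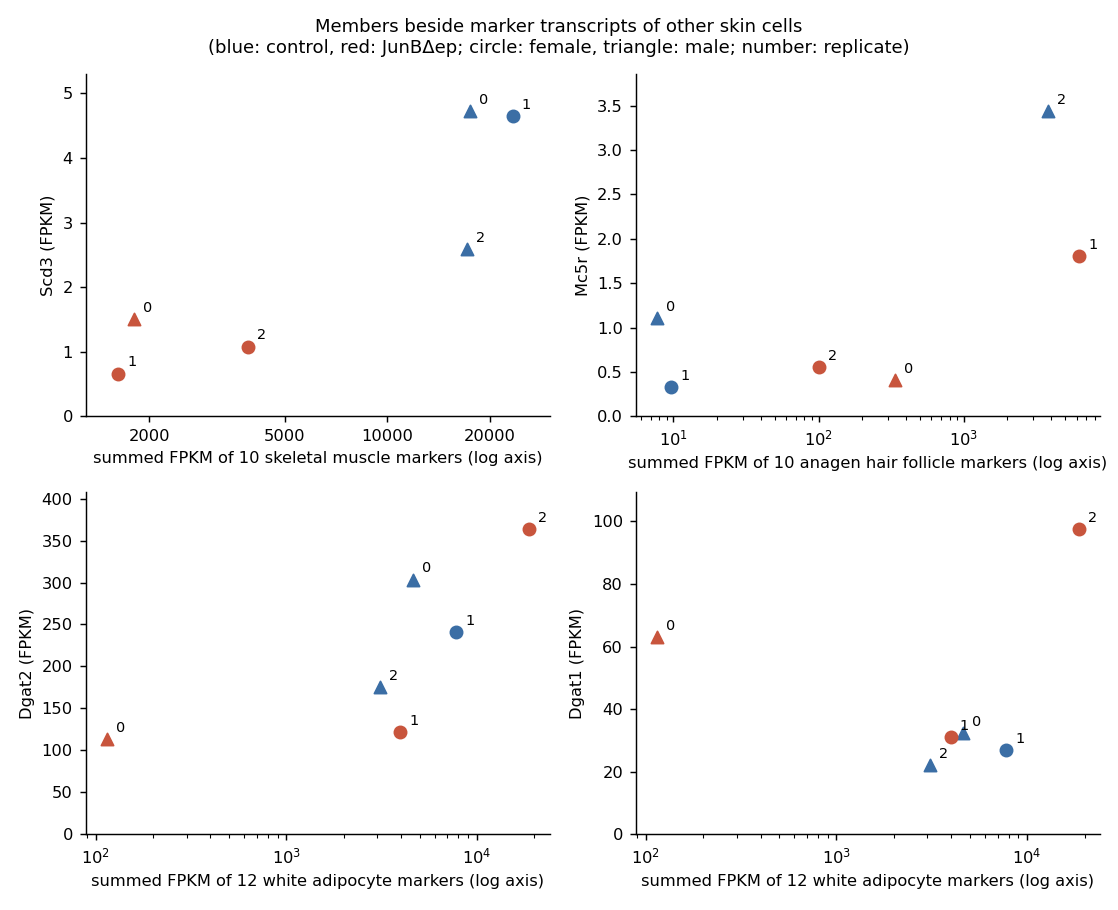
FPKM of Scd3, Mc5r, Dgat2 and Dgat1 (vertical axes from 0) against the summed FPKM of marker genes of other cells (horizontal log axes) in each mouse, with controls in blue, JunBΔep mice in red, circles for females, triangles for males and replicate numbers beside the points. Both Scd3 and the muscle sum separate the genotypes, Mc5r is highest in the mice with 3837 and 6234 FPKM of anagen hair markers, and Dgat1 is at 63.1 FPKM in the mouse whose adipocyte sum is 114.2 FPKM.

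The balance of the triacylglycerol synthases within each mouse did not overlap between the genotypes, and how often ratios of other genes do so was not tested. The ratio of Dgat2 to Dgat1, which does not depend on how a library is scaled, was 9.39, 8.98 and 7.94 in control replicates 0, 1 and 2 and 1.79, 3.93 and 3.73 in JunBΔep replicates 0, 1 and 2. Every JunBΔep mouse was below every control, with a log2 difference of -1.56. It was -1.76 to -1.19 (the latter without JunBΔep replicate 0) when each mouse was left out in turn. The ratio was chosen after the values were seen, as 1 of 8 ratios computed, and is given as a description with no test. Of the 8 ratios 3 did not overlap, and those other than Dgat2 to Dgat1 contain Scd3, which alone separates the genotypes.

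The other genes linked to sebaceous glands gave no common direction. Of 22 such genes, all measurable, none passed the test and 1, Plin5, had an unadjusted p below 0.05 (limma), 13 had a log2 fold change above 0 and 9 below, and the median was 0.11. Without JunBΔep replicate 2 the median was 0.014, with 11 of 22 above 0. Of the 22, Scd1, Elovl4, Elovl6, Awat1, Awat2 and Cidea were also counted in lists above, so these counts are not independent. Plin5, which coats lipid droplets in oxidative cells such as muscle and brown fat as well, measured 6.65, 9.01 and 5.49 FPKM among controls, against 0.554, 0.810 and 2.62 FPKM for JunBΔep, and was the only one of the 22 whose groups did not overlap, beside 14.8% of all genes in either direction. The muscle markers, Cox7a1 and Cox8b given beside Scd3 were lower in the same mice, and their part in this difference was not tested. Its log2 fold change was -2.19 (adjusted p = 0.127, limma), and without JunBΔep replicate 2 it was -2.66 and passed the test (adjusted p = 0.0264). Plin2, the general lipid droplet coat protein, measured 37.99 to 62.5 FPKM in controls against 157, 51.0 and 122 FPKM for JunBΔep (adjusted p = 0.719), highest in the same mice as Dgat1 but in another order. Fasn, the fatty acid synthase, reached 738 FPKM in JunBΔep replicate 2, the mouse with the most adipocyte transcripts, and was at 23.1 to 133 FPKM in the other 5. Krt79, a keratin of the sebaceous duct and upper follicle, was at 203 to 607 FPKM, and Awat1 was at 4.13 to 18.0 FPKM. Lower levels were found for Awat2 (1.39 to 2.91 FPKM), Dgat2l6 (0.389 to 3.81 FPKM) and Mc5r (0.332 to 3.44 FPKM). The amount of sebaceous gland in each sample was not tested.

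**Figure D4:**
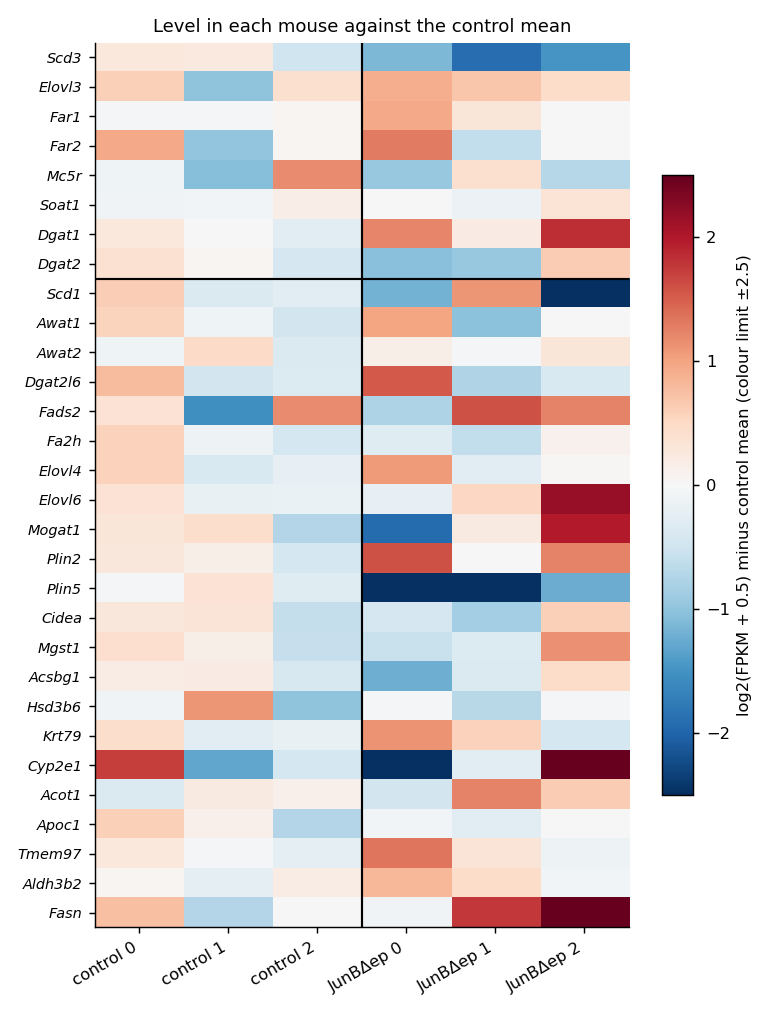
Difference of log2(FPKM + 0.5) from the control mean (colour, limited to ±2.5) for the 8 genes above the horizontal line and 22 other sebaceous gland genes below it, in the 3 control mice (left) and the 3 JunBΔep mice (right). Scd3 and Plin5 are blue in all 3 JunBΔep columns, whereas Dgat2, Mogat1, Fasn and Elovl6 differ in colour between JunBΔep mice.

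Of 15 measurable regulators of sebocytes and lipid synthesis, 0 passed the test and 0 had an unadjusted p below 0.05 (limma). Ppard and Myc, a nuclear receptor and a growth factor-responsive transcription factor active in sebocyte precursors, were higher in every JunBΔep mouse than in every control, 2 of 15 beside 5.62% of all genes, although the gap for Ppard was only between 17.6 and 17.7 FPKM. Ppard ranged over 13.9 to 17.6 FPKM among controls and over 17.7 to 51.8 FPKM for JunBΔep, a log2 fold change of 0.72 (adjusted p = 0.722, limma), or 0.26 without JunBΔep replicate 0. Myc was at 19.2 to 23.0 and 27.2 to 54.2 FPKM, a log2 fold change of 0.72 (adjusted p = 0.666), or 0.396 without that mouse. Ppara, a nuclear receptor of fatty acid oxidation, ranged over 2.35 to 3.10 FPKM among controls and over 0.450 to 2.29 FPKM for JunBΔep, a log2 fold change of -0.89 (adjusted p = 0.716), or -0.47 without that mouse, and was lower in every JunBΔep mouse, as were 9.16% of all genes. Pparg, the receptor that drives both sebocyte and adipocyte differentiation, measured 18.5, 19.98 and 12.6 FPKM among controls, against 3.17, 13.1 and 56.3 FPKM for JunBΔep, which put the 6 mice in the same order as the adipocyte sums.

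The genes closest in pattern to each of the 8 were found by the root mean square difference of log2 levels over the 6 mice, after centring, among the 13742 genes whose mean reached 1 FPKM. Scd3 was nearest to Pacsin3 (0.21), Serpinb6a (0.23) and Pitx3 (0.23), and Elovl3 to Capn15 (0.10), Supt20 (0.13) and Lpcat1 (0.15). Far2 was nearest to Arhgef37 (0.20), Slc16a14 (0.21) and Lyve1 (0.22). Dgat2 was nearest to Gpr146 (0.11), Pde2a (0.14) and Ctso (0.14), and Dgat1 to Rtn4rl2 (0.19), Cxcl9 (0.23) and Aspg (0.25). Mc5r had the least close neighbours, Snord49a (0.28), Pip5k1b (0.28) and Nrg2 (0.33). Far1 and Soat1 spanned under 1 on the log2 scale and were not compared. None of the neighbours of a gene was another of the 8. Among the 6 that were compared, the closest pair was Elovl3 and Far2 (0.58) and the farthest was Mc5r and Dgat1 (1.37), and Dgat1 and Dgat2 were 0.86 apart.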

How the data were processed

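Poly(A) RNA from whole skin of 6 mice was sequenced with strand-specific libraries. According to the study's methods and the submitters' processing notes, reads were aligned to NCBI37/mm9 with TopHat2 2.0.10, Bowtie 1.0.0 and SAMtools 0.1.19. The authors deposited FPKM per gene and mouse. The notes also name FastQC and Cufflinks, but the tool behind the FPKM values and any rescaling of libraries were not given in the sources used here. For their own test the authors used DESeq2 on read counts. Those counts were not analysed here, so depth is unknown and precision rests on the spread between mice.

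From the deposited FPKM, log2(FPKM + 0.5) of genes whose mean reached 0.1 FPKM was compared with limma 3.58.1 (R 4.3.3, trend, two-sided, 3 against 3), with Benjamini-Hochberg adjustment over 17021 genes and a threshold of 0.05. A fold change on this scale understates that of low genes. Figures and tables were made with Python 3.11.15. The procedure was tested on simulated data with 200 altered genes in each of 5 runs. Groups came from the genotype labels.

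The 8 genes and all lists were chosen with earlier results of these data known. Genes named were the 8, Junb, the 3 nearest in pattern to each of the 8 that spanned at least 1 on the log2 scale, and genes of the pathway and cell marker lists, from which those given with values were picked after the values were seen. Sex was inferred from sex-linked transcripts. Alternatives were other pseudocounts (0.1, 1), filters (none, 1 FPKM), scalings, limma settings, blocks, a sex covariate, 0 as missing, an adjusted p below 0.1 and each mouse left out. Dgat2 to Dgat1 ratios with a mouse left out were added after seeing the data.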

Additional observations from a re-analysis of the deposited data

Results flagged for a closer look

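Mc5r differed in opposite directions in the sexes inferred from sex-linked transcripts. In females, both JunBΔep mice (1.80 and 0.555 FPKM) were above the 1 control mouse (0.332 FPKM), a log2 difference of 0.91. In males, the 1 JunBΔep mouse (0.404 FPKM) was below both control mice (1.11 and 3.44 FPKM), a log2 difference of -1.48. The genotype difference in males minus that in females was -2.38 on the log2 scale, and the interaction did not pass the test (limma adjusted p = 0.469 over all genes). With 1 mouse in 2 of the 4 cells of this comparison, sex and single mice cannot be told apart.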

How the results depend on the processing

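No alternative called any of the 8 genes, although 7 of the 20 alternatives leave the fold changes of the 8 as they are by construction or in effect. Of the 104 values that could differ, 100 kept their direction. The 4 that did not were Far2 at -0.27 without control replicate 1 and -0.31 without JunBΔep replicate 0, Mc5r at 0.17 without control replicate 2 and Soat1 at -0.073 without JunBΔep replicate 2, and the cause was not tested. Leaving out each mouse gave -1.75 to -1.29 for Scd3, 0.18 to 0.99 for Elovl3, 0.14 to 0.63 for Far1, -0.31 to 0.69 for Far2, -0.95 to 0.17 for Mc5r, -0.07 to 0.17 for Soat1, 0.72 to 1.54 for Dgat1 and -0.99 to -0.15 for Dgat2, and adjusted p of Scd3 over all its alternatives ran from 0.128 to 0.604. The median of the 8 was 0.15, was -0.12 to 0.32 with each mouse left out and was 0.31 with sex as a covariate. The count of all genes called was 235, with 0 to 254 when each mouse was left out (0 without any one control or JunBΔep replicate 1, and 135 without JunBΔep replicate 0), 47 with sex as a covariate and 0 with the sample number series as a block (1523 at an unadjusted p below 0.05). Each fit with a count of 0 after leaving out a mouse had 793 to 1090 genes at an unadjusted p below 0.05, and 1 or 2 of the 8 genes were below it under every alternative. Of the other genes in the sebaceous lists, 0 to 1 passed with a mouse left out, the 1 being Plin5 without JunBΔep replicate 2.

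With the replicate number as a block 0 genes were called (limma, 972 at an unadjusted p below 0.05), the adjusted p of Scd3 was 0.438 (its log2 fold change of -1.50 cannot differ in this balanced fit), and none of the 8 was called. Same-numbered mice of the genotypes correlated at 0.12, -0.23 and -0.43 in their deviations from the group means, and not every mouse correlated best with its own number, so the numbers were not taken to pair the mice. Depth is unknown, and 3 mice a group limit what could be called.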
